A study of Macaca mulatta with 5 samples.

Results

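Proteasome and chaperone genes are the part of the cell's machinery that folds proteins and removes those that fail to fold. The genes described here were chosen by symbol alone: the PSM genes of the proteasome, the heat shock protein genes of the HSPA, HSPB, HSPH and HSP90 types, the J-domain genes (DNAJA, DNAJB and DNAJC), the CCT chaperonin with TCP1, the BAG genes and the protein disulfide isomerases of the PDIA type. HSPG2, a matrix proteoglycan with a similar symbol, was left out. The rule found 99 genes of the 14132 that the array annotation names, 32 of the proteasome and 67 chaperones. Each gene is represented by its brightest probe set, a group of short probes on the array, by the mean over the 5 arrays.

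Messenger RNA was measured on Affymetrix rhesus arrays while line 366.4, embryonic stem cells of the rhesus macaque, was taken stage by stage towards serotonin neurons. The stem cells, at passage 13, grew on mouse embryonic fibroblasts (MEF) and are called ESC. Embryoid bodies taken after 6 to 8 days are EB, and neurospheres selected for 7 to 9 days in DMEM/F12 with N2 supplement are N1. Cells given FGF4 for another 7 to 9 days are N2, and cells kept afterwards without FGF4 in wells with reduced growth factors are N3. All stages share the 1 line, and each stage was hybridised to 1 array. No difference below therefore has a replicate check, a test or an error, and the number of arrays limits the precision. In whole cultures, fewer cells of a type and less RNA per cell cannot be told apart.

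The proteasome is a barrel, the 20S core, whose inner sites cut proteins, capped by the 19S particle that recognises ubiquitin tags, unfolds the tagged protein and feeds it in. Chaperones act before that point: HSP70 proteins, steered by J-domain partners and released by exchange factors such as the BAG proteins, hold unfolded chains, HSP90 finishes signalling proteins, and the ring-shaped CCT folds actin and tubulin. Human embryonic stem cells are known for high proteasome activity, while neurons, which do not divide, depend on chaperones and the proteasome to keep long-lived proteins in order.

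Signals are array intensities scaled to a common mean of 500 on every array, and 100 was taken as the floor under which a signal is not read. Where a sentence gives 5 signals without stages, they stand in the order from ESC to N3. Of the 99 genes, 94 reached the floor on at least 1 array. The other 5 did not on any: PSMB8, PSMB11, DNAJB7, DNAJB8 and HSPB9. PSMB8 and PSMB11 encode beta subunits of the immunoproteasome and of the thymus proteasome, and DNAJB7, DNAJB8 and HSPB9 are known mainly from testis. Of the 94, 84 were above the floor at every stage, beside 71.9% of all measured genes, and these include all 30 measured proteasome genes. Of all 14132 named genes, 9551 to 10325 were above the floor per array.

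The arrays differed in RNA quality. The ratio of the 3' to the 5' actin control probe set was 1.73 (ESC), 15.2 (EB), 5.43 (N1), 25.2 (N2) and 8.63 (N3). With GAPDH it came to 7.10 in N2 and to 1.69 to 2.78 elsewhere. N2, and after it EB, thus had the poorest 5' signal. The labels held in part. Of 10 pluripotency markers, 8 had a probe set, and 5 of these were at least 2-fold lower in N3 than in ESC. POU5F1 gave 28621 in ESC and 14.7 in N3, SOX2, also a neural factor, gave 19736 and 14978, and NANOG was 2.06-fold higher in N3, with 1047 and 2155. Of the neuron markers, 9 of 13 had a probe set, with a summed signal of 11654, 4452, 24130, 40848 and 67127 from ESC to N3. Of 13 serotonin neuron markers, 10 had a probe set, and TPH1, TPH2, HTR1A and LMX1B, among those that define the type, were under the floor on every array.

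Between ESC and N3, 25 of 94 measured genes of the set were at least 2-fold lower in N3 and 4 were at least 2-fold higher. Over all 11232 measured genes, 16.4% were lower and 17.2% were higher. For the set this is 26.6% lower and 4.26% higher. Their median log2 ratio was -0.58, beside -0.13 over all genes. Of 30 measured proteasome genes, 12 were at least 2-fold lower, none was higher, and 28 lay below their ESC level, beside 56% of all genes, with a median of -0.84. Among 64 measured chaperone genes, 13 were lower and 4 higher, with a median of -0.39. The excess over all genes in the lower count depended on the scaling, since with quantile normalisation 20.4% of the set and 19.2% of all genes were lower. The plot of N3 against ESC by role shows every measured gene.

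**Figure D1:**
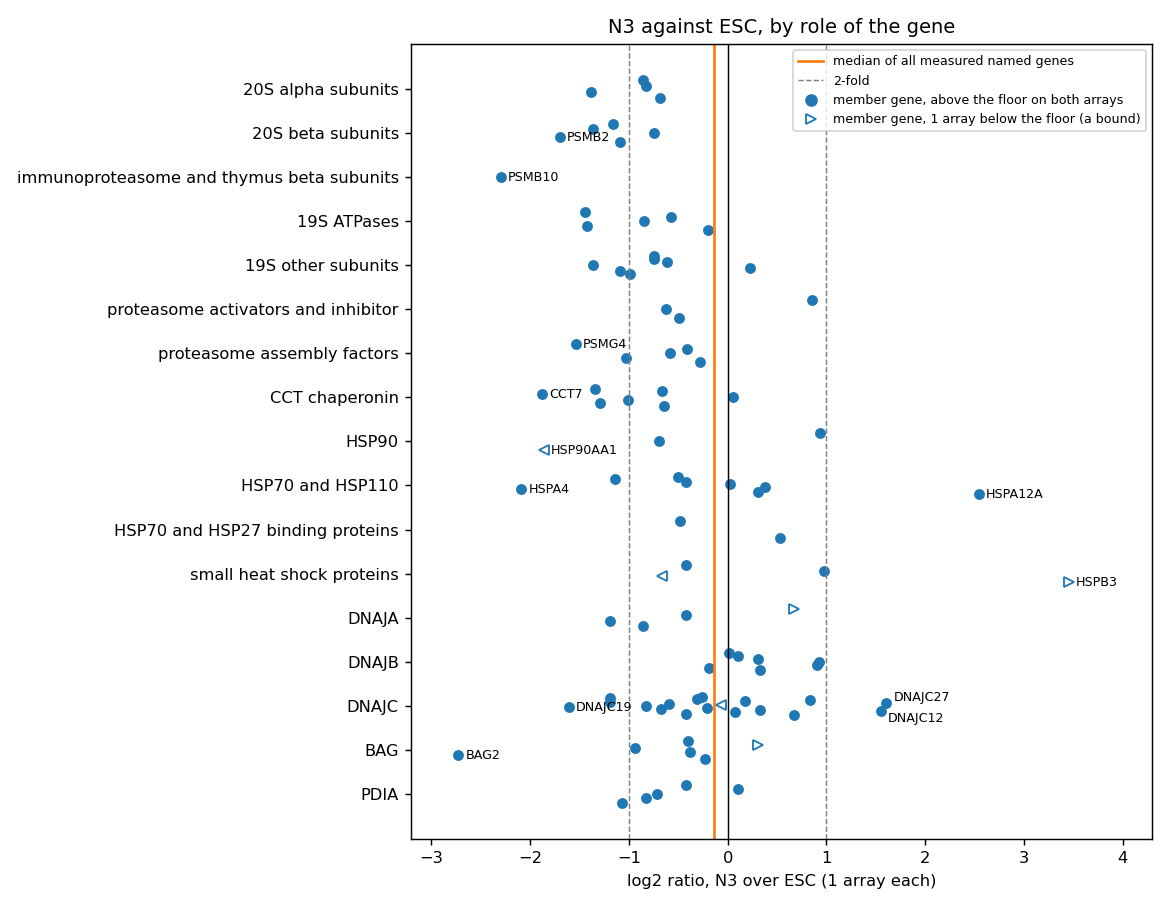
Each point is the log2 ratio of N3 over ESC for 1 gene, 1 array each, in rows by role. Dashed lines mark 2-fold, the orange line marks the median of all measured genes at -0.13, and open triangles mark bounds with 1 array under the floor. All 9 genes of the 20S core lie left of 0, as do 11 of 12 genes of the 19S particle, whereas 6 of 7 DNAJB genes lie right of it.

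The single steps held fewer differences. From ESC to EB, 4 of 92 measured genes of the set were at least 2-fold higher and 5 lower, beside 12.1% and 11.8% of all genes. The higher genes were HSPA12A, DNAJC1, HSP90B1 and DNAJC27, and the lower genes were CCT7, BAG2, PSMC3, PSMG4 and PSMD2. From EB to N1, 3 of 93 were higher and 2 lower, beside 5.15% and 2.2%. These were DNAJC12, HSPBAP1 and HSPB7 on the higher side and PDIA4 and DNAJC21 on the lower. From N1 to N2, 3 of 92 were higher (HSPA12B, DNAJC21 and DNAJC27) and 6 lower (PSMC3, CCT7, PSMD2, PSMB6, PSMC6 and DNAJA1), beside 5.06% and 6.53%. From N2 to N3, 5 of 94 were higher (HSPB3, CCT7, PSMC3, DNAJB5 and PSMD2) and 2 lower (HSPA12B and DNAJC1), beside 4.78% and 2.19%. At each step these counts came close to the shares of all genes or below them.

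**Figure D2:**
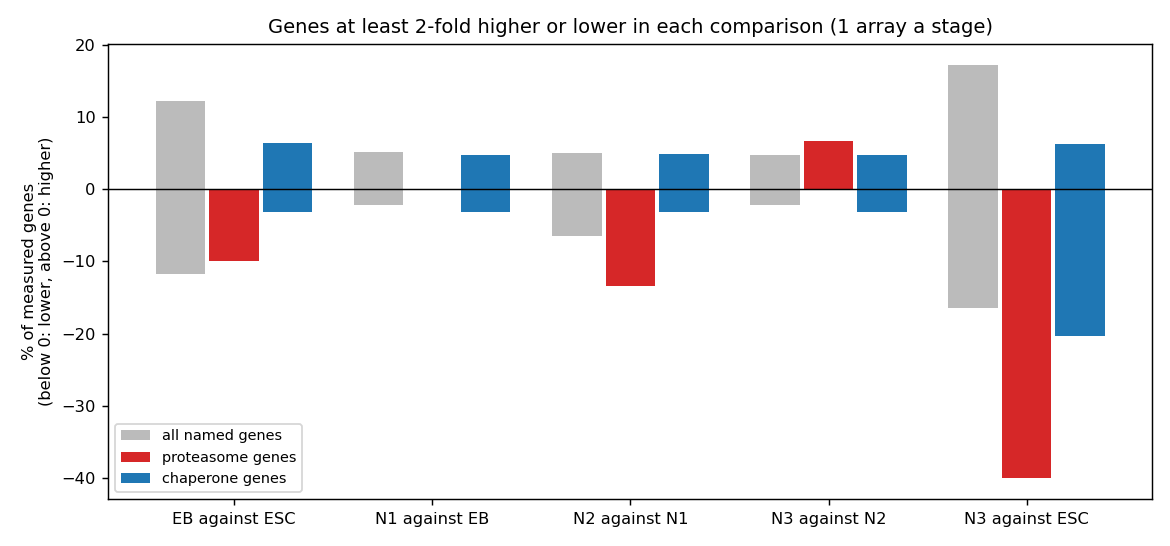
Bars give the percentage of measured genes at least 2-fold higher (above 0) or lower (below 0) in each comparison, 1 array a stage, for all named genes (grey), proteasome genes (red) and chaperone genes (blue). In N3 against ESC the red bar reaches 40% lower, beside 16.4% of all genes, with no proteasome gene higher.

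Among the 9 genes of the 20S core, all lay below their ESC level in N3, with a median log2 ratio of -1.09, and 5 were at least 2-fold lower. The beta subunits form the cutting rings, and 4 of their 5 genes passed 2-fold. PSMB6, the subunit with the caspase-like site, gave 8374 (ESC), 7219 (EB), 6140 (N1), 2623 (N2) and 3260 (N3). It was high up to N1 and low in N2 and N3, 2.57-fold lower in N3 than in ESC. PSMB7, with the trypsin-like site, gave 12366, 9797, 8478, 4657 and 5534 over the same order of stages, 2.23-fold lower in N3. PSMB5, with the chymotrypsin-like site, gave 7838, 7065, 6348, 4511 and 4694. Its ratio of 1.67-fold stayed under 2-fold, in the same order of stages. All 3 subunits that cut were therefore at their lowest in N2.

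PSMB2 and PSMB1 are beta subunits without a cutting site. PSMB2 gave 12013 (ESC), 7059 (EB), 6125 (N1), 3788 (N2) and 3704 (N3), which is 3.24-fold lower at the end. PSMB1 gave 10660, 10270, 7809, 4769 and 4998. PSMB2 was already low in EB, whereas PSMB1 kept its ESC level there. The alpha subunits build the outer rings that gate the barrel. PSMA2 gave 14171 (ESC), 15980 (EB), 11187 (N1), 7377 (N2) and 5453 (N3), 2.60-fold lower in N3 than in ESC. Its 4 other probe sets also gave less in N3 than in ESC but by less than 2-fold, the next brightest with 3067 in ESC and 2464 in N3. PSMA1 gave 6570, 8338, 7215, 5547 and 4087, PSMA3 gave 19679, 21728, 17849, 14891 and 11097, and PSMA7 gave 29119, 27081, 18759, 17827 and 16067. These 3 were 1.61-fold, 1.77-fold and 1.81-fold lower in N3. PSMA1, PSMA2 and PSMA3 were highest in EB and lowest in N3, and PSMA7 was also lowest in N3. The alpha subunits thus lacked the low point in N2 seen for PSMB1 and for the beta subunits with a cutting site.

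**Figure D3:**
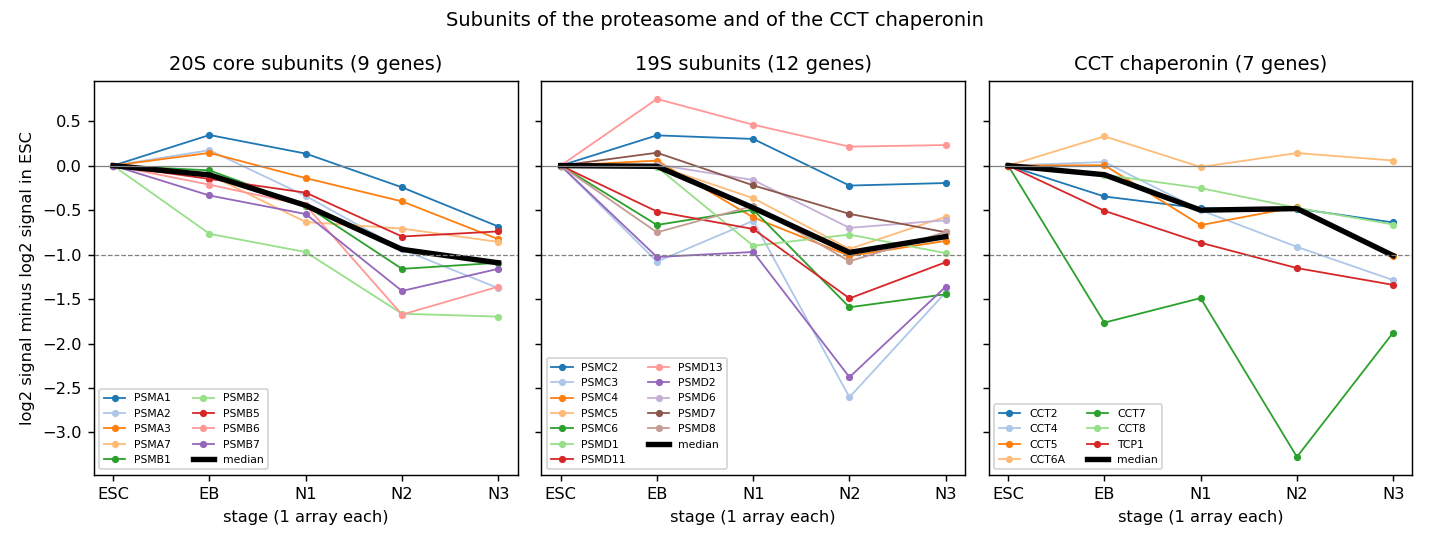
Lines follow 9 genes of the 20S core, 12 of the 19S particle and 7 of the CCT chaperonin over the 5 stages as log2 signal minus log2 signal in ESC, 1 array each. The thick black line is the median and the dashed line marks 2-fold lower. The medians end at -1.09, -0.80 and -1.01 in N3, and PSMC3, PSMD2 and CCT7 show a dip in EB and a deeper one in N2.

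Of the 12 genes of the 19S particle, 11 lay below their ESC level in N3, 4 of them by 2-fold or more, with a median of -0.80. The PSMC genes encode the ATPase ring that unfolds and threads the substrate. PSMC3 gave 3436 (ESC), 1626 (EB), 2236 (N1), 565 (N2) and 1281 (N3). Its range of 6.08-fold was the widest of the proteasome genes. PSMC6 gave 3235, 2037, 2295, 1073 and 1187, and both were lower in EB than in N1. PSMC2, by contrast, gave 6729, 8517, 8282, 5759 and 5874 and was 1.15-fold lower in N3 than in ESC. PSMC4 and PSMC5 lay between, 1.80-fold and 1.49-fold lower.

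Among the subunits without ATPase activity, PSMD2, a scaffold of the 19S base that docks ubiquitin-binding proteins, gave 7760 (ESC), 3807 (EB), 3959 (N1), 1493 (N2) and 3022 (N3). It was 2.57-fold lower in N3 than in ESC, and 2.02-fold higher than in N2. PSMD11, a lid subunit tied to proteasome assembly in human embryonic stem cells, gave 4087, 2858, 2494, 1453 and 1925, 2.12-fold lower in N3. PSMD1, the other large scaffold of the base, gave 6239, 6173, 3341, 3645 and 3154. It kept its level in EB and was lower from N1 on, just inside 2-fold at 1.98. PSMD13, a lid subunit, gave 6659, 11195, 9158, 7720 and 7816. It alone of the 12 stood above its ESC level in N3, by 1.17-fold. PSMD6, PSMD7 and PSMD8 were 1.53-fold to 1.68-fold lower.

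Most proteasome genes were highest in ESC or EB and lowest in N2 or N3. Of the 30 measured proteasome genes, 16 were highest in ESC and 11 in EB, beside 36.4% and 19.1% of all measured genes. Their lowest stage was N2 for 15 and N3 for 13, beside 14.3% and 20.5%. The range over the 5 stages was modest: 46 of 94 genes of the whole set varied by less than 2-fold, beside 47.8%, and 9 varied by 4-fold or more, beside 15.2%. These 9 were HSPB3, CCT7, BAG2, PSMC3, HSPA12A, PSMD2, PSMB10, HSPA4 and DNAJC27. In all, 9 were lower at every step from ESC to N3, beside 4.84%: BAG2, CCT2, CCT8, DNAJA2, HSPA4, PSMA7, PSMB10, PSMB2 and TCP1.

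The low level of proteasome genes was reached in N2 and held in N3. From ESC to EB, 17 of 30 lay lower, beside 53.2% of all genes, with a median of -0.03. With EB left out, 22 of 30 lay lower in N1 than in ESC, beside 54.3%, and 1 was 2-fold higher and 1 lower, beside 13.2% and 11%. From N1 to N2, 29 of 30 lay lower, with a median of -0.53 beside -0.04 over all genes, of which 52.8% lay lower. From N2 to N3 the median was 0.03, with 17 higher and 13 lower, beside 52.1% of all genes lower. In 24 of 30 genes both N2 and N3 lay below ESC, EB and N1, beside 20.3% of all measured genes. N2 had the poorest 5' signal, so N3 was also set against N1 directly, a comparison chosen after the values were seen. N3 in turn had less 5' signal than N1, with an actin ratio of 8.63 against 5.43 and a GAPDH ratio of 2.10 against 1.69. The part of RNA quality in this comparison was not tested. All 30 proteasome genes lay lower in N3 than in N1, beside 54.5% of all genes, with a median of -0.57 beside -0.06. Of these, only PSMA2 passed 2-fold, at 2.05-fold, beside 6.67% of all genes lower and 8.42% higher. The step was thus small for each gene and in the same direction for all.

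Bright probe sets as a group also lay lower in N3, and many of these genes are bright. Among the 1183 named genes with a mean signal of 4000 or more, 19.9% were at least 2-fold lower in N3 than in ESC and 68% lay lower, with a median of -0.40. Of the 17 proteasome genes this bright, 7 were at least 2-fold lower and 16 lay lower, with a median of -0.86. The 16 chaperone genes this bright came close to them, with 7 at least 2-fold lower, 15 lower and a median of -0.76. Against N1, 68.3% of the 1183 lay lower and 5.07% were at least 2-fold lower, with a median of -0.22, while all 17 proteasome genes lay lower and 1 passed 2-fold, with a median of -0.60. Of the 16 chaperone genes, 14 lay lower in N3 than in N1 and none passed 2-fold, with a median of -0.27. In both comparisons the proteasome median was below that of the 1183 genes, and so was the chaperone median. Markers of dividing cells were also lower in N3 than in ESC: 11 of 12 had a probe set, all above the floor at every stage. Their summed signal was 70774 (ESC), 63561 (EB), 52283 (N1), 40636 (N2) and 29676 (N3). From N2 to N3 the median of these markers was -0.51, with 10 of 11 lower, beside 0.03 for the proteasome genes. The part of cell division in the proteasome values was not tested. Nor was the part of the mouse feeder cells in the ESC signals. The list of 8 smooth muscle and fibroblast markers gave a summed signal of 100193 in ESC and 13548 to 43592 afterwards, with all 8 above the floor at every stage.

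Of the measured subunits made for immune cells and regulators of the core, 3 lay below their ESC level in N3 and the inhibitor PSMF1 lay above it. PSMB10, which replaces PSMB7 in the immunoproteasome, gave 1808 (ESC), 1055 (EB), 660 (N1), 440 (N2) and 369 (N3). It was lower at every step and ended 4.90-fold lower, the largest ratio of the proteasome genes. PSMB8, which replaces PSMB5, stayed between 50.7 and 95.7, under the floor. Beside these, 8 of 11 interferon and antigen presentation genes had a probe set, and their summed signal was 24107 (ESC), 13226 (EB), 11652 (N1), 12203 (N2) and 8445 (N3). B2M made up most of that sum, with 21979 in ESC and 6878 in N3, while TAP1, TAP2 and TAPBP were higher in N3 than in ESC, TAPBP by 2.16-fold. PSME2, a subunit of the 11S activator that interferon induces, gave 3766, 4340, 4638, 2971 and 2681 and was 1.40-fold lower in N3 than in ESC. PSME3, the nuclear activator, gave 334, 218, 277, 227 and 216. PSMF1, an inhibitor of the core in the test tube, gave 464, 729, 937, 745 and 837 and was 1.80-fold higher in N3. It and PSMD13 were the only proteasome genes above their ESC level at the end.

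Of 5 assembly factors, all 5 lay below their ESC level in N3 and 2 passed 2-fold. PSMG4 gave 1959 (ESC), 950 (EB), 1061 (N1), 658 (N2) and 678 (N3), 2.89-fold lower. It was already low in EB, where most of the core it helps to build was not. PSMG1, another assembly factor, gave 13320, 14543, 10320, 8744 and 6554, 2.03-fold lower. A separate probe set of PSMG1 ran the other way, with 619, 7.78, 17.6, 1936 and 10802, so the direction for PSMG1 depends on the probe set. PSMG2, PSMG3 and PSMD9 were 1.50-fold, 1.33-fold and 1.21-fold lower.

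The CCT chaperonin, which folds newly made actin and tubulin, ended below its ESC level like the proteasome, but by another course. Its median was -0.35 from EB to N1, -0.22 from N1 to N2 and -0.19 from N2 to N3. For the proteasome genes these medians were -0.21, -0.53 and 0.03. Of the 7 CCT genes here, 6 lay below their ESC level in N3 and 4 passed 2-fold, with a median of -1.01. TCP1, the alpha subunit, gave 15741 (ESC), 11066 (EB), 8630 (N1), 7083 (N2) and 6215 (N3), lower at every step and 2.53-fold lower in all. Both other probe sets of TCP1 also passed 2-fold, with 9513 in ESC and 3337 in N3 for the one and 4194 and 2041 for the other. CCT4 gave 16048, 16505, 11341, 8521 and 6574, and CCT5 gave 23449, 23521, 14746, 16991 and 11629. These 2 kept their ESC level in EB and were 2.44-fold and 2.02-fold lower in N3. CCT2 and CCT8 were lower by 1.56-fold and 1.58-fold, each lower at every step. The 10 probe sets of CCT2 ran both ways, one with 7974 in ESC and 3089 in N3 and another with 890 and 1719. CCT6A gave 7115, 8938, 7037, 7845 and 7402 and held its level, 1.04-fold above ESC in N3.

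CCT7 had the widest range of the CCT genes, with 13234 (ESC), 3894 (EB), 4714 (N1), 1368 (N2) and 3603 (N3). Its lows in EB and N2 fell on the arrays with the highest actin ratio. Among the 94 measured genes, 14 were lower in EB than in ESC and N1 and lower in N2 than in N1 and N3, beside 10.6% of all genes, a pattern picked out after the values were seen. PSMC3, PSMC6, PSMD2, PSMD8, PSMD9, PSMG4 and DNAJA1 were among them. Of the proteasome genes with both dips, 4 of 6 were at least 2-fold lower in N3 than in ESC, with a median of -1.39. Without both dips it was 8 of 24, with a median of -0.79. CCT7 had a log2 ratio of -1.88. Of the 6 other CCT genes, 3 passed 2-fold, with a median of -0.84. Over the whole set the medians were -0.59 with both dips and -0.58 without. Low N3 values were thus found with and without both dips, and among proteasome genes the median was lower with them. Splitting the genes does not remove the difference in RNA quality between ESC and N3, with actin ratios of 1.73 and 8.63. The part of RNA quality in the dips and in the low N3 values was not tested.

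Where a gene had several probe sets, some dimmer ones had lows in both EB and N2, the arrays with the highest actin ratios, where the brightest did not. HSP90AB1, the constitutive cytosolic HSP90, gave 31293, 22141, 20184, 17617 and 19343 from ESC to N3 on its brightest probe set, but 20731, 3299, 7301, 1291 and 2940 on a dimmer one. The brightest varied 1.78-fold and the dimmer one 16.1-fold. PSMB5 gave 4984, 1982, 3203, 664 and 1763 on its second probe set, and PSMD11 gave 3544, 805, 1360, 211 and 864. Both had a low in EB, beside the one in N2, that their brightest probe sets lacked. Of the dimmer probe sets of the set's genes, 23 of 93 had both dips over a range of at least 2-fold, beside 18% of such probe sets of all genes. For the brightest probe sets it was 10 of 94, beside 6.87%. Of 13 genes past 2-fold between ESC and N3 with a second measured probe set, 10 had the same direction there and 6 passed 2-fold again.

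**Figure D4:**
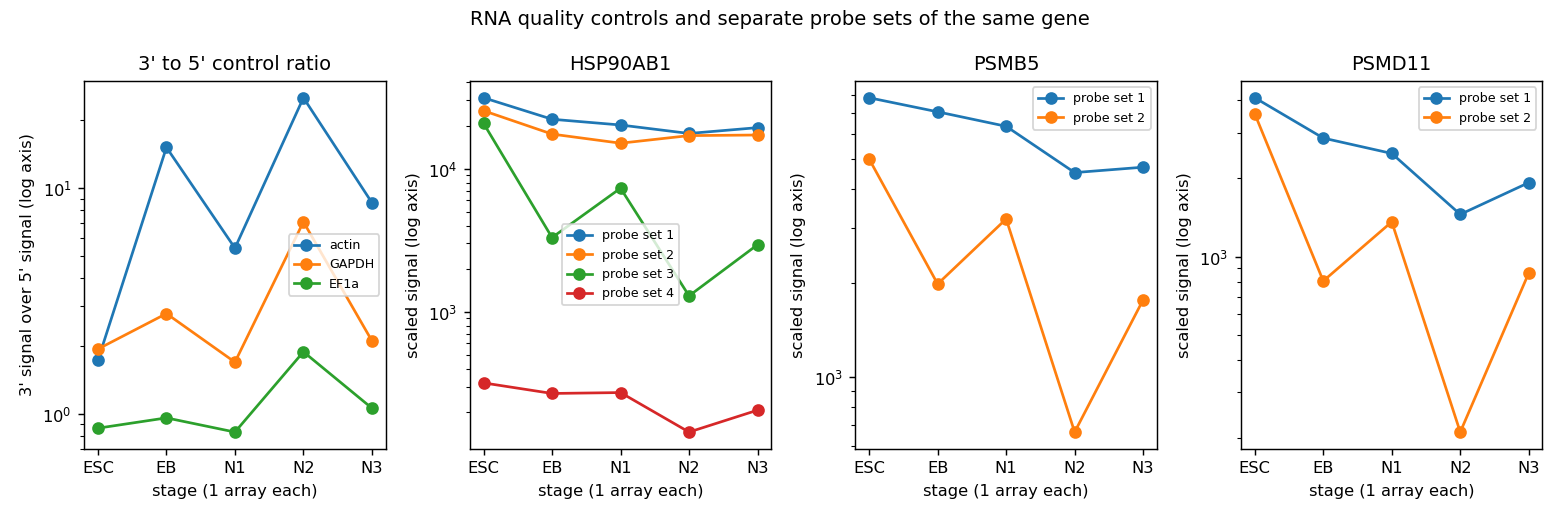
The left panel gives the ratio of 3' to 5' control signal per array for actin, GAPDH and EF1a on a log axis. The other panels give the scaled signal of each probe set of HSP90AB1, PSMB5 and PSMD11 per stage on log axes, 1 array each. Probe set 3 of HSP90AB1 and probe set 2 of PSMB5 and of PSMD11 are low in EB and N2, where the actin ratio is 15.2 and 25.2.

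Among HSP70 and HSP110 genes, the main cytosolic chaperone kept its level while its exchange factor and its mitochondrial relative did not. HSPA8, the constitutive HSP70, gave 20811 (ESC), 18746 (EB), 17194 (N1), 18864 (N2) and 15588 (N3), a range of 1.34-fold over all stages. HSPA4, an exchange factor of the HSP110 type, gave 7671, 4799, 3061, 2732 and 1806. It was lower at every step, by 4.25-fold in N3, while its next brightest probe set gave 3326 in ESC and 2150 in N3, under 2-fold. Its 4 dimmer probe sets were past 2-fold in the same direction. HSPA9, the mitochondrial HSP70 that pulls in imported proteins, gave 8650, 5390, 4509, 3878 and 3937, 2.20-fold lower. HSPH1, the stress-induced HSP110, gave 3023, 3215, 2386, 2558 and 2140, a ratio of 1.41-fold. The stress-induced HSPA1A and HSPA1B, HSPA2, and HSPA5 of the endoplasmic reticulum were not analysed here, nor were HSPB1, HSPD1 and HSPE1.

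HSPA12A, a distant relative of HSP70 known from brain, ran opposite to them. It gave 368 (ESC), 840 (EB), 1542 (N1), 1727 (N2) and 2151 (N3), from 1 probe set. It was the only gene of the set that was higher at every step, beside 3.85% of all genes, and ended 5.84-fold higher. HSPA12B, its relative known from endothelium, gave 213, 260, 277, 655 and 263. It stood out in N2 alone, where it was 2.37-fold above N1 and 2.49-fold above N3.

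Of the HSP90 genes, HSP90AA1, the stress-inducible cytosolic form, gave 363 (ESC), 221 (EB), 149 (N1), 165 (N2) and 76.2 (N3) on a dim probe set. N3 was under the floor, so it was at least 3.63-fold lower than ESC. HSP90AB1 was 1.62-fold lower in N3 than in ESC. HSP90B1, the form of the endoplasmic reticulum, gave 1427, 2909, 2156, 2899 and 2721. It was lowest in ESC and 1.91-fold higher in N3, the opposite side from both cytosolic genes.

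**Figure D5:**
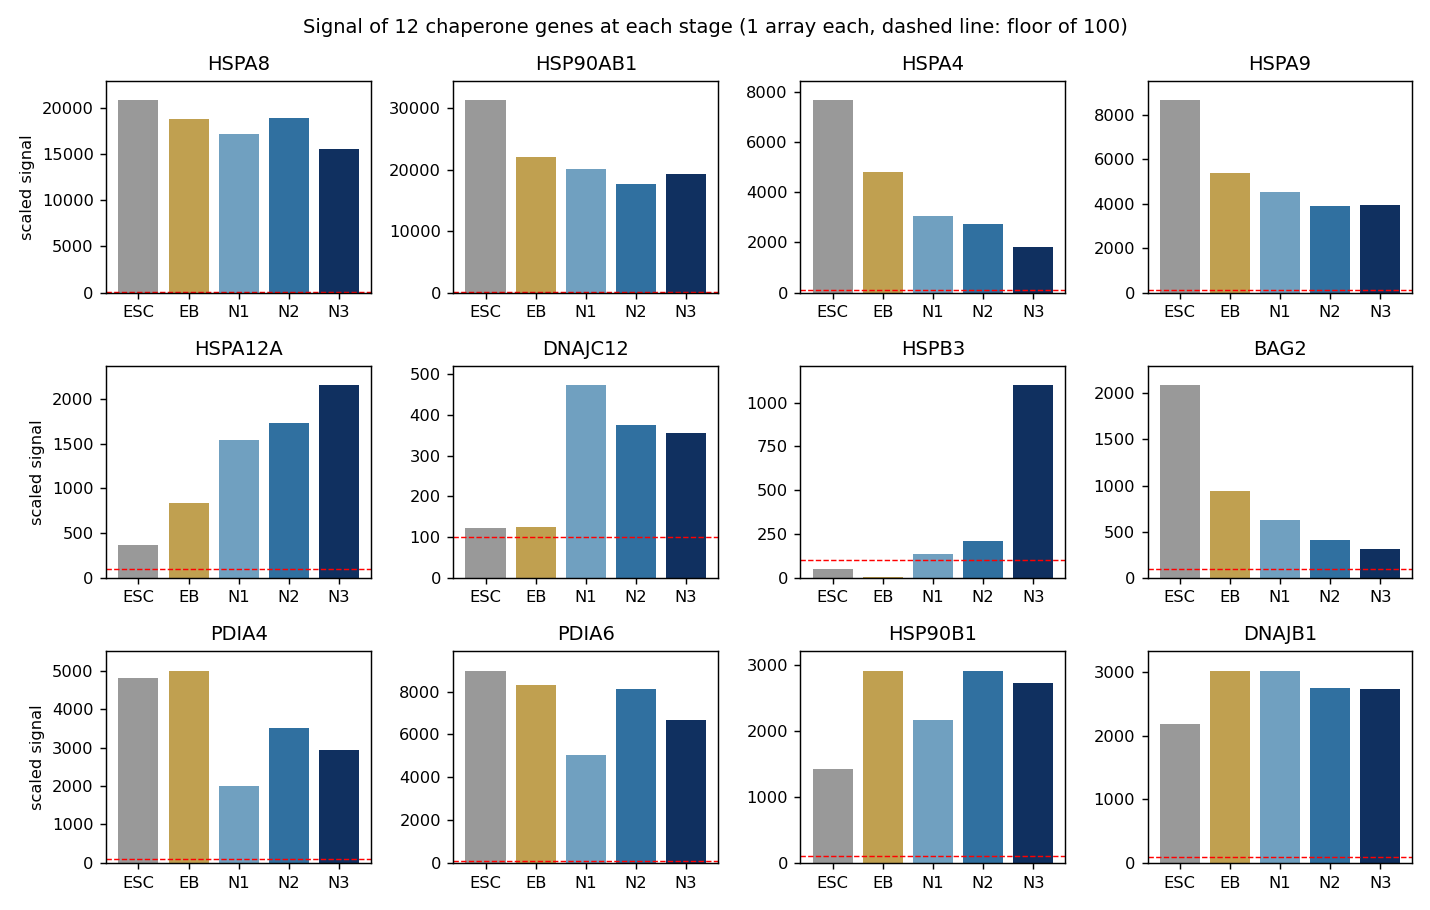
Bars give the scaled signal of 12 chaperone genes at each stage, 1 array each, on linear axes that start at 0, with the floor of 100 as a dashed line. HSPA8 and DNAJB1 vary by less than 1.4-fold, HSPA4 and BAG2 step down from ESC to N3, HSPA12A steps up, HSPB3 stands out in N3, and PDIA4 and PDIA6 are lowest in N1.

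The J-domain genes, whose proteins hand clients to HSP70, were split. Between ESC and N3, 2 of 29 measured were at least 2-fold higher and 4 lower, with a median of -0.06 beside -0.13 over all genes. DNAJB1, the main partner of HSPA8 in the cytosol, gave 2179 (ESC), 3022 (EB), 3026 (N1), 2754 (N2) and 2730 (N3), within 1.39-fold throughout. Of 7 measured DNAJB genes, 6 lay above their ESC level in N3, with none past 2-fold and a median of 0.31. DNAJB2, known from neurons, gave 624, 809, 650, 709 and 1188, its high value in N3 alone. DNAJB14, of the endoplasmic reticulum membrane, gave 196, 283, 322, 383 and 366, 1.87-fold higher in N3. DNAJB5 gave 1026, 560, 721, 523 and 1104, back at its ESC level in N3. DNAJA1, another partner of HSPA8, gave 4517, 2823, 3016, 1493 and 2493. It showed the dips in EB and N2 and was 1.81-fold lower in N3, whereas DNAJA2, with 2000, 1665, 1306, 943 and 877, stepped down to 2.28-fold lower.

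DNAJC12 and DNAJC27 were the 2 J-domain genes past 2-fold on the higher side. DNAJC12 is the co-chaperone of the aromatic amino acid hydroxylases, among them the tryptophan hydroxylases that make serotonin. It gave 121 (ESC), 124 (EB), 473 (N1), 376 (N2) and 356 (N3). It sat near the floor in ESC and EB and 3.80-fold higher in N1 than in EB, while its clients TPH1 and TPH2 were under the floor on every array. DNAJC27, a small GTPase with a J-domain, gave 190, 384, 352, 764 and 578. Of its 3 other probe sets, one gave 109, 487, 387, 540 and 598 and another 191, 301, 242, 450 and 392, both lowest in ESC as well, and the remaining one stayed under the floor at every stage. DNAJC6, the neuronal auxilin that strips clathrin from vesicles, gave 993, 1449, 927, 1182 and 1769, highest in N3 but 1.78-fold above ESC.

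On the lower side, DNAJC19, a subunit of the motor that imports mitochondrial proteins, gave 4990 (ESC), 3113 (EB), 3186 (N1), 2006 (N2) and 1641 (N3). It was 3.04-fold lower in N3, and HSPA9, the HSP70 of the same motor, was lower too. DNAJC8, linked to splicing, gave 5543, 5604, 4506, 2843 and 2423, 2.29-fold lower. DNAJC28 gave 247, 132, 95.4, 82.5 and 108, close to the floor from N1 on. Within the series, DNAJC1 of the endoplasmic reticulum membrane gave 1439, 3191, 3429, 4708 and 2293, with a peak in N2 that its second probe set, with 393, 628, 981, 566 and 866, did not show. DNAJC21, a ribosome assembly factor, gave 2011, 1530, 717, 1626 and 1133, with a low in N1. Its second probe set, with 620, 356, 371, 389 and 260, had its low in N3 instead.

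Small heat shock proteins bind unfolding proteins without ATP, and HSPB3 is known from muscle. HSPB3 gave 48.6 (ESC), 5.12 (EB), 138 (N1), 208 (N2) and 1099 (N3). It was at least 10.99-fold higher in N3 than in ESC, the largest ratio of the whole set, and 5.27-fold higher than in N2. The summed signal of striated muscle markers was also highest in N3. Of these markers, 12 of 16 had a probe set, all 12 above the floor in N3. Their sum was 15041 (ESC), 31552 (EB), 20934 (N1), 19605 (N2) and 62699 (N3). Before N3 the courses differed: the sum was higher in EB than in ESC, while HSPB3 was under the floor in both. The sum then fell up to N2, while HSPB3 rose. Among the markers, 10 of 12 were at least 2-fold higher in N3 than in N2. The part of muscle cells in the HSPB3 signal was not tested. CRYAB, a small heat shock protein of muscle and lens from the list of partner genes, gave 315, 177, 192, 118 and 556 and was likewise highest in N3. HSPB7, known from heart, gave 102, 115, 245, 130 and 201, while HSPB8, the partner of BAG3, gave 2313, 2609, 2553, 2094 and 1723. HSPB7 was 1.55-fold higher in N3 than in N2, and HSPB8 was 1.22-fold lower.

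The BAG proteins release clients from HSP70. BAG2, which also holds back the ubiquitin ligase CHIP, gave 2086 (ESC), 936 (EB), 622 (N1), 414 (N2) and 316 (N3). It was lower at every step and ended 6.61-fold lower, the largest ratio on the lower side. Its second probe set gave 104, 337, 119, 396 and 157 and did not follow it. All 6 BAG genes were lower in N2 than in N1, beside 52.8% of all genes, with a median of -0.62, none by 2-fold. BAG1 gave 782, 922, 833, 531 and 667, and BAG3, which steers clients to autophagy, gave 1527, 1819, 1517, 1403 and 1170. BAG4, which binds death receptors, gave 2248, 3047, 1849, 1327 and 1173, 1.92-fold lower in N3 than in ESC. Outside the family, the exchange factor HSPBP1 gave 1462, 980, 932, 573 and 1050. HSPBAP1, which binds HSP27, gave 560, 296, 842, 534 and 806, with lows in EB and N2.

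Protein disulfide isomerases form disulfide bonds in the endoplasmic reticulum, and all 5 measured here were lower in N1 than in EB, beside 51.8% of all genes, with a median of -0.64. PDIA4 gave 4806 (ESC), 5005 (EB), 2011 (N1), 3520 (N2) and 2935 (N3). It was 2.49-fold lower in N1 than in EB, and its second probe set, with 3587, 4675, 2206, 2809 and 2794, was lowest in N1 as well. PDIA6 gave 8984, 8291, 5037, 8105 and 6690, with its low also in N1. DNAJB11, the J-domain partner in the same compartment, gave 3739, 4604, 2776, 2940 and 3278. PDIA3, which works on glycoproteins, gave 10145, 7155, 5801, 5676 and 5722 and stayed at its N1 level. PDIA2, known from pancreas, gave 288, 164, 106, 71.7 and 138, 2.09-fold lower in N3 than in ESC and near the floor from N1 on. The actin ratio of N1 was 5.43, and the part of RNA quality in these values was not tested.

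Of 16 further folding genes of the endoplasmic reticulum, 8 had a probe set, and none was past 2-fold between EB and N1 or between ESC and N3. Their median was -0.36 for the first and -0.14 for the second. CANX, the lectin chaperone calnexin, gave 10819 (ESC), 17471 (EB), 10812 (N1), 16198 (N2) and 14255 (N3). CANX was lower in N1 than in EB and N2, as were PDIA4 and PDIA6, but unlike them it was at its ESC level there. Of the 8 genes, 5 lay lower in N1 than in EB and 3 higher, beside 51.8% of all genes lower. SIL1, among the 3, gave 562 (EB), 930 (N1) and 466 (N2).

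Genes around the proteasome and the cytosolic chaperones were counted from lists. Of 20 proteasome partners, 9 had a probe set and 8 were measured. Between ESC and N3, 2 of the 8 were at least 2-fold lower and none higher, beside 16.4% and 17.2% of all genes. Their median was -0.83. ADRM1, the ubiquitin receptor of the 19S particle, gave 1572, 635, 518, 247 and 546, with its low in N2. SEM1, a small subunit of the lid, gave 15930, 13349, 9211, 9178 and 6839. Both were thus on the same side as the subunits. Of 24 partners of HSP90 and HSP70, 20 had a probe set and 18 were measured, 3 lower and 1 higher, with a median of -0.41. That is 16.7% lower and 5.56% higher, beside the same shares of all genes, so the lower count was near that share. STIP1, which bridges HSP70 and HSP90, gave 4607, 2788, 2423, 1188 and 2383, with a low in N2.

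All 12 regulators of the folding responses had a probe set, and 11 were measured between ESC and N3. Of these, 2 were at least 2-fold higher, or 18.2%, and none lower, beside 17.2% and 16.4% of all genes. The higher share was thus near that of all genes. HSF2, a heat shock factor active in development, gave 767 (ESC), 2102 (EB), 2447 (N1), 2391 (N2) and 2307 (N3). HERPUD1, a target of the unfolded protein response that works in the removal of proteins from the endoplasmic reticulum, gave 1237, 2914, 2401, 3046 and 3333. Both stepped up between ESC and EB and stayed up. NFE2L1, the factor that raises proteasome genes when the proteasome is blocked, gave 3659, 2750, 2941, 3205 and 4006. It was highest in N3, where most proteasome genes were low.

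The scaling between arrays set the size of the smaller steps. With quantile normalisation, equal medians or the hybridisation controls in place of the common mean, the proteasome median for N3 against ESC was -0.65, -0.74 and -0.63, beside medians over all genes of -0.16, -0.05 and 0.04. Against N1 it was -0.53, -0.59 and -0.90, and in each case every measured proteasome gene lay lower in N3. From EB to N1 the proteasome median was -0.21 as reported and turned to 0.26 with the hybridisation controls, where the median of all genes moved to 0.41.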

How the data were processed

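The authors deposited linear array intensities, 1 for each probe set on each array. Per the submitters' processing notes they came from GCOS 1.0. The algorithm is not given in the sources used here. Arrays were brought to a mean of 500 after trimming 2% at each end (factors 2.508 to 2.511), floored at 100 and taken to log2. All printed signals are scaled and before the floor. Only probe sets with 1 symbol in the platform annotation were used, so 9 probe sets that share a symbol of the set with another gene were left out. Of the 99 genes, 98 matched the RefSeq gene table by identifier, and the symbols were the same. A gene was measured in a comparison when 1 of the 2 arrays reached 100. A ratio with 1 side under the floor is a bound.

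With 1 array a stage there was no test. Genes were counted at 2-fold and set beside all named genes. The technical spread between 2 probe sets of a gene was taken as the SD of the difference between both log2 ratios over the square root of 2. Over all genes it was 0.82 for N3 against ESC and 0.43 to 0.75 for single steps. Over genes of the set it was 0.83 and 0.45 to 0.78, the latter in N2 against N1. In that step 3 genes past 2-fold had a second measured probe set. All 3 had the same direction there and none passed 2-fold again. The code was tested on simulated data. Python 3.11.15, numpy 2.4.6 and pandas 2.3.3 were used.

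The members and lists were chosen with earlier results of these data known. Signals are given for the 5 genes with the largest ratio each way per comparison, for the 2 of widest range per role and for a set of well-known genes. Other named genes, the dip pattern, the bright genes, N1 against ESC and N3 against N1 were chosen after the values were seen. Alternatives were 3 other scalings, floors of 50 and 200, no floor, the median over all probe sets of a gene, the arithmetic mean to pick a probe set, and leaving out probe sets able to bind related transcripts. No sequences or coordinates are given.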

Additional observations from a re-analysis of the deposited data

How the results depend on the processing

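No paired analysis was possible because each stage has 1 array, and for the same reason no replicate could be left out. Of 94 counts of genes past 2-fold, 68 stayed within 1.5 times the reported count. With equal medians between arrays, 10 of 92 genes were higher and 1 lower in EB against ESC, beside 23.9% and 5.98% of all genes. In N1 against EB 12 of 93 were lower, beside 8.06%. Higher were 3 of 94 in N3 against N2, beside 3.61%, and 7 of 93 in N3 against ESC, beside 18.9%. With the hybridisation controls as the scale, 2 of 91 were lower in EB against ESC, beside 9.72% of all genes. In N1 against EB 6 of 94 were higher and 0 lower, beside 13.8% and 0.69%. In N2 against N1 0 of 94 were higher and 34 lower, beside 1.71% and 23.3%. In N3 against N2 8 of 94 were higher and 1 lower, beside 8.05% and 1.27%. In N3 against ESC 10 of 93 were higher and 15 lower, beside 21.0% and 12.02%. With a floor of 50 or with no floor, 6 were higher in N1 against EB and 4 lower in N3 against N2. The shares of all genes were 7.23% and 3.26% with the floor of 50, and 8.51% and 3.85% with no floor. With the median over all probe sets of a gene, 11 of 93 were lower in EB against ESC, beside 13.0% of all genes. In N1 against EB 1 of 93 was higher, beside 4.87%, and in N2 against N1 10 of 92 were lower, beside 6.77%. In N3 against N2 8 of 94 were higher and 1 lower, beside 4.76% and 1.61%. Under that setting BAG2 turned to a log2 ratio of 0.27 in EB against ESC and PSMG1 to 1.55 in N3 against ESC. Without EB, 10 of 93 genes were lower in N1 than in ESC, beside 11% of all genes. Without N2, 1 of 94 was higher and 1 lower in N3 than in N1, beside 8.42% and 6.67%. The count lower in N3 against ESC ran from 15 to 26 over these scalings, floors and probe set choices. As a share of the set beside that of all genes, it was 20.4% beside 19.2% with quantile normalisation, 21.5% beside 13.9% with equal medians and 16.1% beside 12.02% with the hybridisation controls. The 34 genes lower in N2 against N1 under those controls were 36.2% of the set, beside 23.3% of all genes. The cause of these shifts was not tested. Dim genes near the floor of 100 have the least certain ratios.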

Other observations

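Several genes had their highest or lowest signal at a single stage in the middle of the culture. DNAJC9, a histone chaperone, gave 3543 (ESC), 5566 (EB), 4600 (N1), 3780 (N2) and 2954 (N3), highest in EB as were several alpha subunits of the proteasome. BAG6, a chaperone of tail-anchored membrane proteins, gave 3189, 2622, 2064, 1309 and 2410, with its low in N2, the array with the highest actin ratio. DNAJC25 gave 3317, 2097, 1635, 1413 and 2203. HSF1, the master factor of the heat shock response, gave 586, 462, 234, 637 and 533, with a low in N1 that was also seen for PDIA4 and DNAJC21. These genes were chosen after their values were seen.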
